A study of Drosophila melanogaster with 3 samples.

Results

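The 10 genes described here, *Chro*, *BEAF-32*, *pzg*, *Dref*, *M1BP*, *CTCF*, *Cp190*, *su(Hw)*, *mod(mdg4)* and *Clamp*, encode proteins that act at chromatin domain borders and at promoters of broadly expressed genes. They were taken by symbol from the Ensembl annotation, and all 10 were found among 13945 protein-coding genes on 6 chromosome arms, that is X, the left and right arms of chromosomes 2 and 3, and chromosome 4. The measurements were chromatin immunoprecipitation followed by sequencing (ChIP-seq) for Empty spiracles (Ems), a homeodomain transcription factor, in *Drosophila melanogaster*. All samples were whole embryos of strain 16T-GFP, male and female pooled, 0 to 24 hours old, from a line that stably carries *ems* with green fluorescent protein at its C-terminal end. They formed 1 group of 3 biological replicates, so no condition was compared with another and no test between groups was possible. The experiment description gives an antibody against the tag, whereas another field of the labels gives ems. The labels alone do not settle which antibody was used, and in whole embryos a peak does not show in which cells it arose.

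Insulator proteins were first defined by their ability to block an enhancer from a promoter when placed between them. In flies, DNA-binding proteins such as BEAF-32, CTCF and Su(Hw) sit at fixed sequences, and partners such as Cp190, Mod(mdg4) and Chromator join them there. DREF, M1BP and CLAMP are promoter factors that recognise, in that order, the DNA replication-related element TATCGATA (DRE), the core promoter element called motif 1, and runs of GA. The peaks described below are of Ems at the genes for these proteins, not of the proteins themselves.

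The authors' optimal list, thresholded on agreement between replicates, held 3866 peaks with a median width of 404 bp on dm6. These were also the highest entries of the joint list, called on all 3 replicates together. Of them, 2499 overlapped one of the 3866 highest entries of every replicate, so an optimal peak need not be among the highest in each. Each replicate's own list held 30000 entries, background regions included, of which 3527, 4276 and 4599 had a q-value under 0.01 in replicates 1, 2 and 3. Signals are the authors' values on a scale the sources do not give, so a peak is described by its rank within a list, 1 being the highest signal. Read depth is unknown, because peak lists give no read counts. Nothing states whether the replicates came from separate collections of embryos beyond the word biological, and the optimal list was derived from these same replicates.

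Most of the genes, 6 of 10, had an optimal peak at their start. Bound is used here for a gene with at least 1 optimal summit no more than 1 kb from one of its transcription start sites (TSSs), and the bound genes were *Chro*, *Cp190*, *Dref*, *BEAF-32*, *pzg* and *M1BP*. That is 60.0% of the members, against 22.2% of all protein-coding genes. With 10 genes the exact binomial 95% interval ran from 26.2% to 87.8%, counting error only. The genes were chosen with earlier results of these data known and not drawn at random, so the interval is no test against that share. *CTCF*, *su(Hw)*, *mod(mdg4)* and *Clamp* were not bound. Among the 3866 highest entries of each replicate's list, the count was 7 of 10 in replicate 1 (22.3% of all genes), 6 in replicate 2 (22.1%) and 5 in replicate 3 (22.1%). The members' share over the replicates was therefore 60.0% ± 10 (SD, n = 3), and that of all genes 22.2% ± 0.155. *Chro*, *Cp190*, *Dref*, *BEAF-32* and *pzg* were bound in every replicate. *M1BP* was bound in replicate 2 alone, and *su(Hw)* and *mod(mdg4)* in replicate 1 alone. When only optimal peaks matched among the highest entries of both remaining replicates were kept, *M1BP* was lost whichever replicate was left out, and 5 genes stayed bound. Of all genes 17.8%, 16.4% and 16.2% were then bound without replicates 1, 2 and 3.

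A summit within 1 kb can lie nearer to another gene, and several of these genes are close neighbours of one. For 5 of the 10 genes a summit was nearest to a TSS of the gene itself, against 15.6% of all genes, and the bound gene without one was *pzg*. In the gene body, from the annotated start to the end, 3 of 10 held an optimal summit, *Chro*, *BEAF-32* and *mod(mdg4)*, against 11.0% of all genes. The *BEAF-32* body peak was not among the 3866 highest entries of replicate 1, so without replicate 2 or replicate 3 the count was 2. The members had a median length of 3780 bp, from 1909 bp for *M1BP* to 26556 bp for *mod(mdg4)*, against 2166 bp for all genes, and the part of gene length in these shares was not tested.

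The strength of the peaks differed widely among the bound genes. Of the 3098 bound protein-coding genes in the genome, 6 had a higher peak than *Chro*, 345 a higher one than *Cp190*, 835 than *Dref*, 1284 than *BEAF-32*, 1398 than *pzg* and 2369 than *M1BP*. The median rank in the optimal list was 1072 for the 6 members and 1667 for all bound genes. The peak was present among the 3866 highest entries of all 3 replicates for 5 of the 6, all but *M1BP*, against 67.9% of the bound genes in the genome. The median over the 6 genes of the mean replicate rank was 1336. It was 882 without replicate 2, the replicate that ranked the *pzg* and *Dref* peaks lowest.

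**Figure D1:**
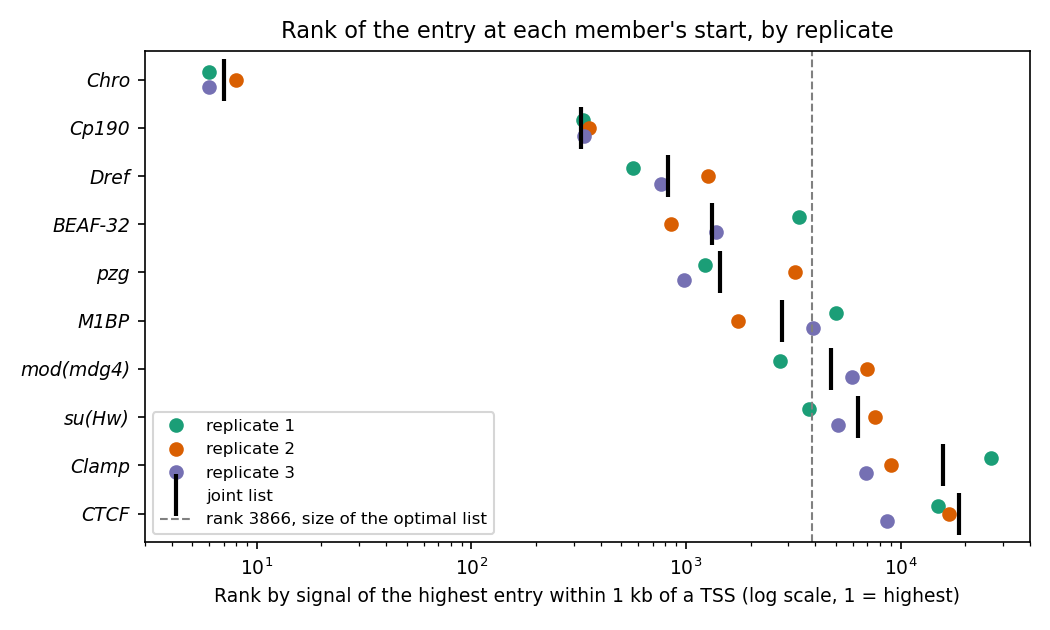
Rank by signal (log scale, 1 = highest) of the highest entry within 1 kb of a TSS of each of the 10 genes, in each replicate's list (coloured points) and in the joint list of all replicates (black bar); the dashed line marks rank 3866, the size of the optimal list. *Chro* lay between ranks 6 and 8 in every replicate, *Cp190* between 331 and 352, and the entries of *M1BP*, *mod(mdg4)* and *su(Hw)* fell on both sides of the line.

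Among the genes for partner proteins, *Chro* had the highest peak at its start and *Cp190* the next. *Chro* (FBgn0044324; dm6, 3L, 22873702 to 22878984, reverse strand) encodes Chromator, a chromodomain protein of interbands and domain borders. Its peak, from 22878714 to 22879090, had its summit at 22878882, in the 5' untranslated region (UTR) of *Chro*. The summit lay 102 bp downstream of the first of 3 annotated starts, at 22878984, which was the nearest. It was upstream of the others, at 22878768 and 22878184. The peak ranked 7 in the optimal list. In replicates 1, 2 and 3 the matching entry ranked 6, 8 and 6 of 30000, a mean of 6.67 ± 1.15 (SD, n = 3), with summits 106, 101 and 85 bp downstream. The 3 replicates thus placed the peak at the top of their lists and within 21 bp of each other. On the other side of the first *Chro* start, *Ssl1* starts 105 bp away on the opposite strand. It encodes a subunit of the general transcription factor TFIIH, and the summit lay 207 bp from its TSS.

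*Cp190* (FBgn0000283; 3R, 15270432 to 15275241, reverse strand) encodes a BTB and zinc finger protein that is recruited to insulators by several DNA-binding proteins. A narrow peak of 135 bp, from 15275278 to 15275412, had its summit at 15275358 in intergenic sequence, 117 bp upstream of the *Cp190* start. It ranked 324 in the optimal list and 331, 352 and 336 in replicates 1, 2 and 3, a mean of 340 ± 11.0 (SD, n = 3). The replicates ranked it almost alike, with the summit 161, 115 and 117 bp upstream. *CG4338* starts 281 bp from *Cp190* on the other strand, and a further optimal peak, from 15275358 to 15275761, had its summit 38 bp inside *CG4338*, in its 5' UTR, and 319 bp upstream of *Cp190*. That peak ranked 1790. In replicates 2 and 3 it was a separate entry of rank 2527 and rank 1484, while in replicate 1 a single entry, the one of rank 331, covered both.

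*pzg* (FBgn0259785; 3L, 21286099 to 21290310, forward strand) encodes Putzig, a zinc finger protein found in a complex with DREF and TRF2 and together with Chromator. Its peak, from 21285705 to 21286108, had its summit at 21285907, 192 bp upstream of the *pzg* start. The summit fell in the 5' UTR of *CG12974*, which starts 137 bp from *pzg* on the other strand, and lay 55 bp from the *CG12974* TSS. The peak ranked 1447 in the optimal list and 1221, 3223 and 974 in replicates 1, 2 and 3, a mean of 1806 ± 1233 (SD, n = 3). Replicate 2 ranked it lowest, and the summits, 284, 242 and 182 bp upstream, were spread over 102 bp, the widest range among the highest peaks of the 6 genes.

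Sequences at the *Chro* and *pzg* summits, and from the *Cp190* summit to its start, are shown for letters found in BEAF-32 or DREF sites. At *Cp190* these letters lie at the start, outside the peak. They were read from the Release 6 (dm6) genome of RefSeq on the strand of the gene, 5' to 3'. Capitals mark matches, on either strand, to CGATA, the core bound by BEAF-32 in clusters (TATCG on the other strand), or to the DRE TATCGATA, which contains it, and to the homeodomain palindrome TAATTA. The first run is the summit of *Chro*, chr3L:22878868-22878897, reverse strand. The next is that of *pzg*, chr3L:21285899-21285928, forward strand. The last covers the *Cp190* summit and start, chr3R:15275212-15275411, reverse strand.
Chro: cTATCGacaggcaatacactcccagtaata
pzg: atttcaagtaaaTAATTAcgtTATCGtaat
Cp190: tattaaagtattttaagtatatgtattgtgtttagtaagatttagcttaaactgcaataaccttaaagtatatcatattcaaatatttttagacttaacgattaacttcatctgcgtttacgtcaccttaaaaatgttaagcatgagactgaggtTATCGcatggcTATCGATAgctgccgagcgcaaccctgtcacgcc

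CGATA lay 10 bp from the *Chro* summit, and there it was part of CGATAG. At *pzg* it lay 13 bp from the summit, and the palindrome TAATTA lay 4 bp from it on the same side. The *Cp190* summit had none of these within 100 bp, and its window was A and T rich, with 25.4% GC. A DRE lay across the *Cp190* TSS itself, from 4 bp upstream to 3 bp downstream. A further DRE lay 14 bp upstream of the other annotated *Cp190* TSS, at 15274790.

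*mod(mdg4)* (FBgn0002781; 3R, 21350846 to 21377401, reverse strand) encodes a large family of BTB proteins, among them a partner of Su(Hw). Its variable 3' exons come partly from separate precursor transcripts that are joined to the common exons by trans-splicing. The gene was not bound at its own start, yet it held a peak in its body that ranked 242, from 21365237 to 21365640, with the summit at 21365439, 11962 bp from the *mod(mdg4)* TSS. In replicates 1, 2 and 3 this peak ranked 303, 231 and 256, a mean of 263 ± 36.6 (SD, n = 3), higher than that of *Cp190* in every replicate. The summit lay in an intron of *mod(mdg4)* and in the 5' UTR of the precursor gene *pre-mod(mdg4)-E*, 49 bp from its TSS. Further starts lay on both sides. *pre-mod(mdg4)-AB* and *pre-mod(mdg4)-C* start 149 bp away on the same strand as *mod(mdg4)*, and 7 others (*pre-mod(mdg4)-AD*, *-AE*, *-U*, *-V*, *-W*, *-X* and *-Y*) start together 170 bp away on the opposite strand.

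A further body peak, from 21373389 to 21373792, ranked 3822, just inside the optimal list. Its summit at 21373591 lay 16 bp from the shared TSS of *pre-mod(mdg4)-AA*, *-N* and *-O*. The matching entries ranked 5207, 5446 and 5056 in replicates 1, 2 and 3, outside the 3866 highest of each. In all, 13 of the 23 precursor genes had a TSS within 1 kb of these 2 summits, against 22.2% of all protein-coding genes. The annotation lists them as protein-coding genes of their own, but many share a start, so they are not separate cases. If the precursor genes are counted to *mod(mdg4)*, a choice made after seeing the data, 7 of the 10 genes were bound. That rule extends *mod(mdg4)* alone and no share of all genes was counted under it, so this count cannot be set beside 22.2%. At the *mod(mdg4)* TSS itself the joint list held an entry of rank 4742 with a q-value of 0.0104, outside the 3866 entries of the optimal list. The replicates ranked their highest entry there 2741, 6943 and 5928, so it was among the 3866 highest in replicate 1 only. The nearest optimal summit outside the gene was 1368 bp upstream and 208 bp from the TSS of *tin*, which encodes the homeodomain factor Tinman, and it ranked 1674.

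**Figure D2:**
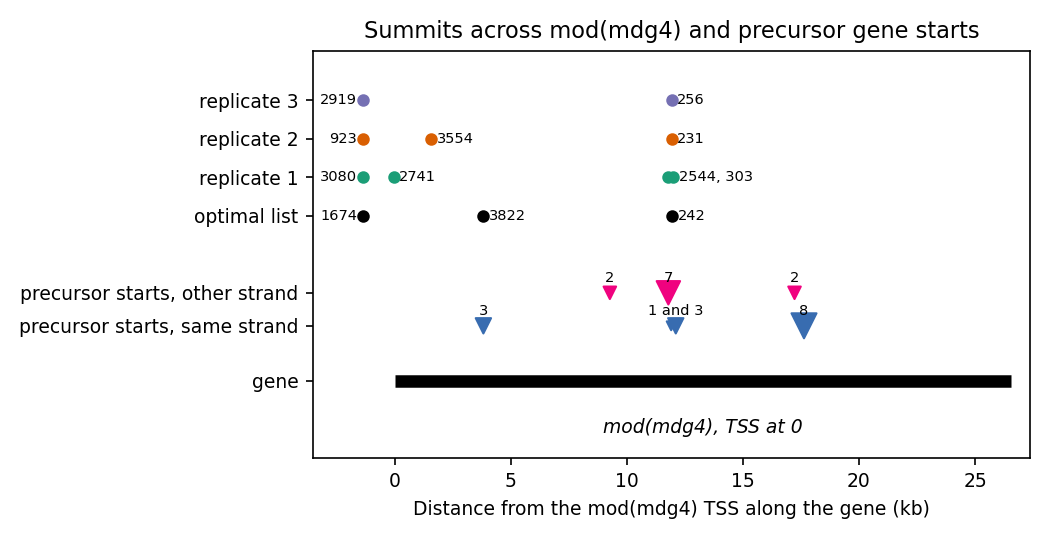
Distance along *mod(mdg4)* in kb from its TSS (black bar, gene) of summits in the optimal list and among the 3866 highest entries of each replicate (points, labelled with their rank) and of the starts of its precursor genes by strand (triangles, labelled with the number of genes starting there; a gene with several starts is counted at each). Each replicate had an entry of rank 231 to 303 about where 11 starts gather in the middle of the gene, and none had an entry at the group of 8 starts farther down.

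Among the promoter factors, *Dref* and *M1BP* were bound. *Dref* (FBgn0015664; 2L, 9964147 to 9967229, reverse strand) encodes DREF, the factor that binds the DRE of replication and growth genes. Its peak, from 9967066 to 9967469, had its summit at 9967268 in the intergenic stretch between *Dref* and *RpL13*, a ribosomal protein gene that starts 84 bp away on the other strand. The summit lay 39 bp from the *Dref* TSS and 45 bp from that of *RpL13*. The peak ranked 825 in the optimal list and 568, 1267 and 766 in replicates 1, 2 and 3, a mean of 867 ± 360 (SD, n = 3). Replicate 2 ranked it lowest, but the summits lay 42, 40 and 46 bp upstream of *Dref*, a range of 6 bp and the narrowest among the highest peaks of the 6 genes.

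The stretch between both starts, with 30 bases of UTR included, is shown for its single CGATA. It lies at chr2L:9967215-9967327 of dm6 and is given on the reverse strand, 5' to 3', with the complement of CGATA in capitals; the base before it completes CGATAG.
Dref: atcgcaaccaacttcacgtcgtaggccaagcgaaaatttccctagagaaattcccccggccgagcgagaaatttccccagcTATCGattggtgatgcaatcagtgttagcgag

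That CGATA lay 22 bp from the summit, on the side towards *Dref* and 13 bp upstream of its TSS. *Dref* held no full DRE in its promoter, taken as 250 bp upstream to 50 bp downstream of the TSS, nor within 100 bp of its summit.

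*M1BP* (FBgn0037621; 3R, 8729790 to 8731698, reverse strand) encodes motif 1 binding protein, a zinc finger factor at paused promoters. Its peak, from 8731566 to 8731969, had its summit at 8731768, 70 bp upstream of the TSS, and ranked 2802 in the optimal list. The matching entries ranked 5004, 1738 and 4071 in replicates 1, 2 and 3, a mean of 3604 ± 1682 (SD, n = 3). A further peak, from 8731790 to 8732193, lay 294 bp upstream of *M1BP* and 99 bp from the TSS of *CG8202*, which starts 393 bp from *M1BP* on the other strand. It ranked 2968, and 6831, 2199 and 3922 in replicates 1, 2 and 3. Only replicate 2 had either peak among its 3866 highest entries. Motif 1, searched as GGTCACACT, was in neither the *M1BP* promoter nor its summit windows.

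*BEAF-32* (FBgn0015602; 2R, 14770469 to 14772630, forward strand), for the boundary element associated factor, was the only DNA-binding insulator gene of the list that was bound. A narrow peak of 122 bp, from 14770373 to 14770494, had its summit at 14770430, 39 bp upstream of the first *BEAF-32* TSS and in an exon of the antisense transcript *asRNA:CR42254*. It ranked 1318 in the optimal list and 3373, 854 and 1378 in replicates 1, 2 and 3, a mean of 1868 ± 1329 (SD, n = 3). Replicate 1 ranked it lowest, while the summits lay 33, 35 and 47 bp upstream. A further peak, from 14771067 to 14771470, lay inside the gene, in its 5' UTR and 32 bp upstream of another *BEAF-32* TSS at 14771301. It ranked 2533, and 3995, 1704 and 3316 in replicates 1, 2 and 3, so replicate 1 did not hold it among its 3866 highest. *asRNA:CR42254* has starts 160 bp and 26 bp from these 2 summits, and a peak carries no strand by which it could be given to one gene or the other.

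**Figure D3:**
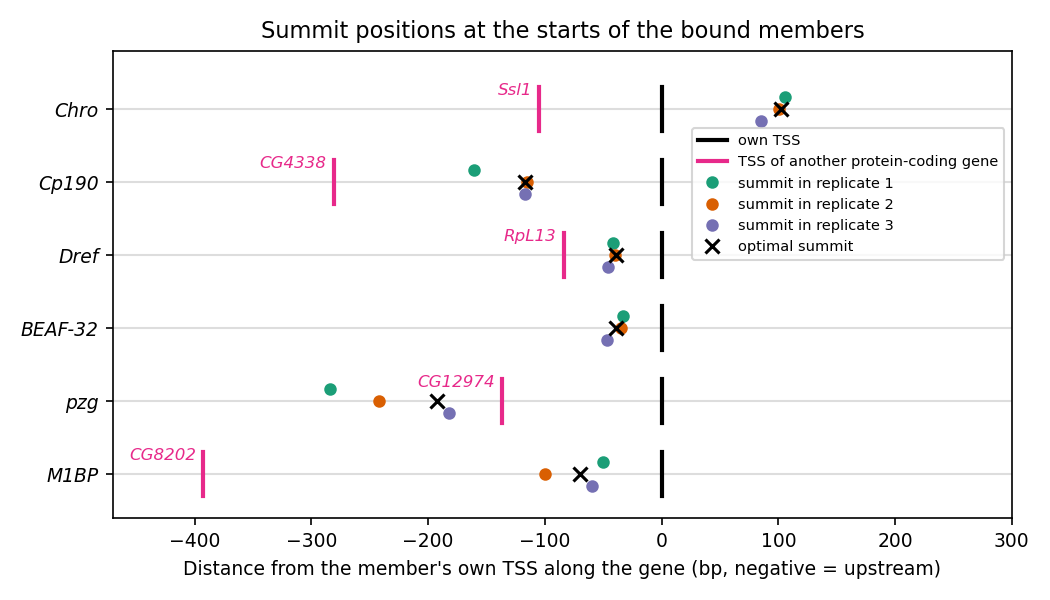
Distance in bp from the gene's own TSS (black bar; negative is upstream) of the summit in each replicate (coloured points) and in the optimal list (cross) for the highest peak of each bound gene, with the TSS of the neighbouring protein-coding gene on the other strand (pink bar). By the nearest of a gene's own TSSs, the one drawn, the summit lay upstream for every bound gene except *Chro*, at 102 bp downstream. The *Chro* summit was upstream of the other annotated *Chro* starts. For *Cp190*, *Dref* and *M1BP* the summit lay between both starts.

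Most of the bound genes share their upstream region with a gene on the other strand. With a divergent partner defined as an opposite-strand protein-coding TSS at most 500 bp upstream, a limit chosen after seeing the data, 6 of the 10 genes had one. Of these 5 were bound (*Chro*, *pzg*, *Cp190*, *Dref* and *M1BP*), against 41.0% of the 3815 genes in the genome with such a partner. *su(Hw)*, whose partner *Polr2I* encodes a subunit of RNA polymerase II and starts 500 bp away, was not bound. Of the 4 genes without a partner 1 was bound, *BEAF-32*, against 15.1% of 10130 genes. With partners within 250 bp, 3 members had one and all 3 (*Chro*, *pzg* and *Dref*) were bound, against 38.5% of such genes. At that limit *Cp190*, *M1BP* and *BEAF-32* were bound without a partner, and the share of all genes without one was not counted. With the 500 bp limit the bound share was thus higher with a partner for members and for all genes. In the related list counted below it was not, with 4 of 13 bound with a partner and 7 of 20 without. The part of promoter arrangement in the count was not tested.

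The genes not bound at their start differed in how near they came. At *su(Hw)* (FBgn0003567; 3R, 14304455 to 14308589, reverse strand), which encodes the zinc finger protein of the *gypsy* insulator, the joint list held an entry of rank 6350 with a q-value of 0.0584. The replicates ranked their highest entry there 3759, 7591 and 5126, and only replicate 1 had it among its 3866 highest. The nearest optimal summit lay 2604 bp away, in an intron of *CG31321*, and ranked 3593. *CTCF* (FBgn0035769; 3L, 7353578 to 7356713, reverse strand) encodes the fly counterpart of the vertebrate insulator protein. Its highest joint entry ranked 18683 with a q-value of 0.669, and the replicates ranked theirs 14887, 16815 and 8641, far down each list. The nearest optimal summit, of rank 2922, was 3833 bp away and 15 bp from the TSS of *Sec63*, an endoplasmic reticulum translocation gene.

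*Clamp* (FBgn0032979; 2L, 22165720 to 22169143, reverse strand) encodes a zinc finger protein that binds GA repeats on the male X chromosome and at the histone genes. Its highest joint entry ranked 15714 with a q-value of 0.563, and the replicates ranked theirs 26274, 8987 and 6889. The nearest optimal summit lay 301669 bp away and ranked 284. Over all genes the median distance from a TSS to the nearest optimal summit was 7593 bp, and 0.846% of genes lay farther from one than *Clamp*.

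The starts of the 4 genes without an optimal peak are shown because each carries a full DRE or motif 1. Each run covers the TSS from 100 bp upstream to 29 bp downstream on the reverse strand, 5' to 3', in dm6. *CTCF* is at chr3L:7356684-7356813, *mod(mdg4)* at chr3R:21377372-21377501, *su(Hw)* at chr3R:14308560-14308689 and *Clamp* at chr2L:22169114-22169243. Capitals mark the DRE or CGATA, motif 1 as GGTCACACT, and TAATTA.
CTCF: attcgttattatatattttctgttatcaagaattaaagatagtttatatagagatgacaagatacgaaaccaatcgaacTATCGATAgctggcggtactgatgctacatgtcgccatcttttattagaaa
mod(mdg4): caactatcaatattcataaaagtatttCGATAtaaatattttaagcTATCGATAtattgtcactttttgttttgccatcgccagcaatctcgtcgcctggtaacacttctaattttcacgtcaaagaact
su(Hw): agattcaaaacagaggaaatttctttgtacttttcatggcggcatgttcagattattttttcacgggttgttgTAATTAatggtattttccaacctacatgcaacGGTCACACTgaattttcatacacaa
Clamp: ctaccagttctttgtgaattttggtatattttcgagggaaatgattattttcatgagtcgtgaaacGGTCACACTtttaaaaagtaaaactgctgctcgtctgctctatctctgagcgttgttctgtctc

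The DRE lay 14 bp upstream of the *CTCF* TSS and 47 bp upstream of that of *mod(mdg4)*. Motif 1 lay 5 bp downstream of the *su(Hw)* TSS and 26 bp upstream of that of *Clamp*. In promoters, motif 1 was thus found at 2 of the 4 unbound genes and at none of the 6 bound ones. The DRE was found at 2 unbound genes and at 2 bound ones, *Cp190* and *BEAF-32*. Over the genome motif 1 went the other way, since 35.8% of genes with it in a promoter were bound, against 22.2% of all genes. For the DRE that share was 36.2%.

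A search over both strands set these matches against the genome. In promoters as defined above, the DRE was in 7.99% of 19607, CGATA, which overlaps it, in 45.8% and CGATAG in 17.8%. GGTCACACT was in 5.23%, GAGAGA, a short GA run found at *Clamp* alone, in 14.6%, and TAATTA, found at *pzg*, *su(Hw)* and *mod(mdg4)*, in 18.9%. Within 100 bp of the highest summits of the 6 bound genes the DRE occurred at 0, against 5.38% of all optimal summits and 8.25% of the 2460 within 1 kb of a TSS. Within 200 bp it occurred at 2 (*Cp190* and *BEAF-32*), against 8.20% and 12.4%. CGATA occurred within 100 bp at 3 (*Chro*, *pzg* and *Dref*; 33.1% of all and 39.4% of those within 1 kb of a TSS). CGATAG occurred at 2 (*Chro* and *Dref*; 13.3% and 18.7%) and TAATTA at 1 (*pzg*; 15.1% and 14.9%). TAAT, the short homeodomain core inside TAATTA, occurred at all 6, but also at 90.0% of all optimal summits and 89.0% of those within 1 kb of a TSS. Of genes in the genome with the DRE in a promoter 36.2% were bound, and of those with GGTCACACT 35.8%, against 22.2% of all genes. GGTGGCGC, a core of the CTCF site, lay 55 bp from the summit of the further *Cp190* peak, near *CG4338* (1.09% of all optimal summits), and GCATACTT, from the Su(Hw) site, was at no member. These are matches of letters in fixed windows and show neither a site nor its absence.

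The base composition of the summit windows also varied among the genes. At the highest summit of each bound gene it was 25.4% GC at *Cp190*, 31.3% at *BEAF-32* and at *M1BP*, 37.3% at *pzg*, 38.3% at *Chro* and 42.3% at *Dref*. The further summits at *BEAF-32*, *Cp190* and *M1BP* had 35.3%, 41.3% and 27.9%. The *mod(mdg4)* body summit of rank 242 had 27.4% and that of rank 3822 had 39.3%. Over all optimal summits the median was 36.8%, with quartiles at 32.8% and 41.3%, so the highest summits of *Cp190*, *BEAF-32*, *M1BP* and *mod(mdg4)* and the further one of *M1BP* lay below the lower quartile, and that of *Dref* lay above the upper one.

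A further list of 33 genes for related factors was counted in the same way. Of these, 11 were bound (33.3%; 34.3% ± 1.75 over the replicates, SD, n = 3), against 22.2% of all genes and 6 of 10 for the members. A difference between the lists was not tested. Among 11 genes for other insulator proteins 2 were bound, *Trl*, which encodes the GAGA factor, and *l(3)mbt*. Among 6 cohesin and condensin genes 2 were bound, *Cap-H2*, for a condensin II subunit, and *SMC1*. All 4 genes for chromatin partners were bound, which are *fs(1)h*, for a BET bromodomain protein, *JIL-1*, for a histone H3 kinase that works with Chromator, *Top2*, for topoisomerase II, and *e(y)2*. Among 12 genes for promoter factors 3 were bound, *nsl1*, *E(bx)* and *Trf2*. With a divergent partner 4 of 13 of the related genes were bound (30.8%), and without one 7 of 20 (35.0%).

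None of the related genes had a peak as high as *Chro* or *Cp190*. *Trl* ranked 624 in the optimal list and 679, 497 and 679 in replicates 1, 2 and 3. *Cap-H2* ranked 843, and 979, 620 and 1315 in the replicates. *fs(1)h* ranked 1101, and 1500, 1026 and 1105 in the replicates. These genes lay near *Dref* and *BEAF-32* in the order and were present in all 3 replicates. *l(3)mbt* ranked 1672 (3531, 2899 and 1210 in the replicates), *JIL-1* 1858 (1996, 1498 and 2495) and *Top2* 2745 (7561, 2307 and 2821), the last outside the 3866 highest of replicate 1. The genes not bound were *Ibf1*, *Ibf2*, *pita*, *ZIPIC*, *dwg*, *Elba1*, *Elba2*, *Elba3*, *insv*, *vtd*, *SMC3*, *SA1*, *Nipped-B*, *gfzf*, *Iswi*, *Nurf-38*, *Caf1-55*, *MBD-R2*, *Rcd1*, *Rcd5*, *wds* and *mof*.

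**Figure D4:**
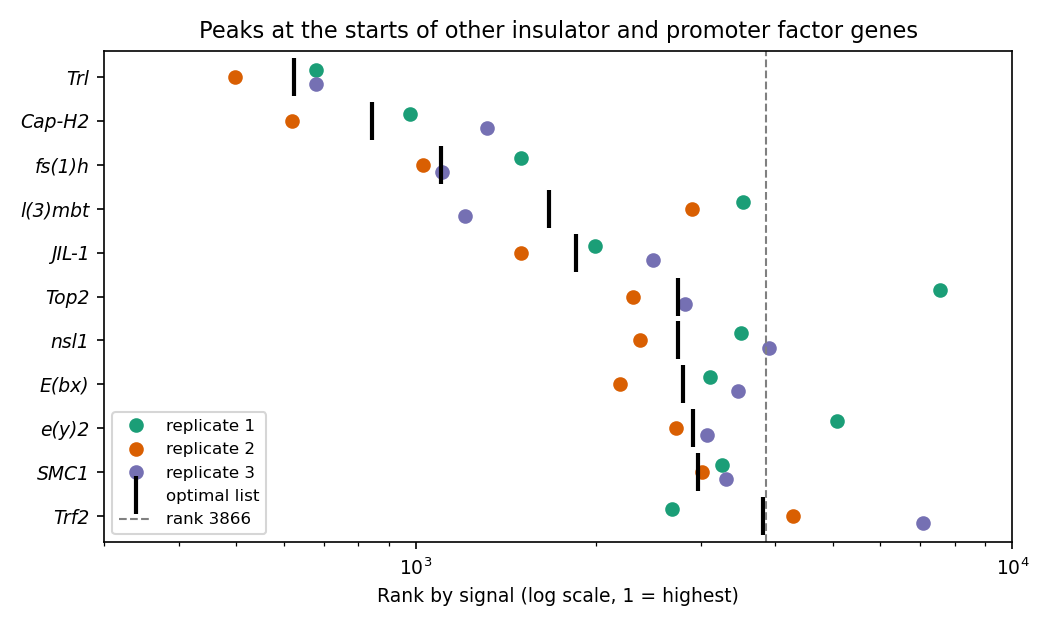
Rank by signal (log scale, 1 = highest) of the highest optimal peak within 1 kb of a TSS of the 11 bound genes among the 33 related ones (black bar) and of its matching entry in each replicate (coloured points); the dashed line marks rank 3866. The ranks run from 624 for *Trl* to 3821 for *Trf2*, and *Top2*, *e(y)2*, *nsl1* and *Trf2* have at least 1 replicate beyond the line.

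Among peaks within 1 kb of a TSS, those of 5 other genes were nearest to that of *Chro* by the mean absolute difference in rank over the 3 replicates. *ph-p*, a Polycomb group gene, ranked 7, 7 and 8 in replicates 1, 2 and 3, a mean difference of 1.33 from *Chro*. *PNPase*, for a mitochondrial polynucleotide phosphorylase, ranked 8, 6 and 7, a difference of 1.67. *px* ranked 5, 3 and 5, a difference of 2.33. *Ugalt*, for a UDP-galactose transporter, ranked 3, 4 and 4, and *Lk6*, for a protein kinase, 10, 10 and 9, a difference of 3.00 each. Every one of these neighbours lay among the 10 highest entries of each replicate, so the order among them and *Chro* differs by no more than a few places.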

How the data were processed

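ChIP-seq peak lists on dm6 were analysed for 3 biological replicates of 1 group. Per the labels, chromatin was sonicated to fragments of 200 to 800 bp. Per the authors' deposited notes, a list of peaks and background was called for each replicate against a control and for all 3 replicates jointly, and an optimal list was derived from them by the irreproducible discovery rate. The aligner, caller and thresholds were not given in the sources used here. The control library was not analysed here, and the dm3 lists were not used. The signal column, as deposited by the authors, has no stated scale and was used only to rank entries within a list. A scaling that keeps the order of entries therefore changes neither ranks nor positions. The −log10 q column, deposited by the authors, gave the q-values, which are over the entries of one list. Summits were placed by the deposited offset (bp from an interval's first base), and coordinates are printed 1-based.

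Genes, TSSs and UTRs came from the Ensembl annotation, release 115, and bases from the RefSeq genome, both of Release 6, which is dm6. A peak was matched to a replicate by an overlap of at least 1 bp with one of its 3866 highest entries; for single ranks the whole list was used. Python 3.11.15, pandas 2.3.3 and scipy 1.17.1 were used, and the search for summits within 1 kb of a TSS was tested on simulated summits. No p-value was computed, since there is 1 group. Depth per sample is unknown. Alternatives covered the TSS window, the nearest gene, the peak threshold, single replicates, each replicate left out, the ranking column and the motif window. The genes, lists, motifs and settings were chosen with earlier results of these data known, and the divergent-partner limits and the count with precursor genes were added after seeing the data. The text names the 10 genes, genes with a TSS within 1 kb of their summits, genes that overlap a summit with them, the related list, with values for its 6 highest, and the 5 genes nearest in rank to the highest member; genes at the nearest summit of an unbound member and the partner of *su(Hw)* were named after their values were seen.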

Additional observations from a re-analysis of the deposited data

How the results depend on the processing

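The count of 6 bound genes ranged from 5 to 9 over the settings tried. It was 6 with TSS windows of 250 bp (16.0% of all genes bound) and 500 bp (19.5%), with any overlap of the peak interval (23.1%) and with joint entries at a q-value under 0.01 (25.8%). It was 7 with 2 kb (26.9%), adding *mod(mdg4)*, and 9 with 5 kb, all but *Clamp*, where 40.6% of all genes were bound. It was 5 with only the stronger 1933 peaks kept, without *M1BP*, where 12.6% were bound. The related list moved from 11 to 18 with 5 kb and to 5 with those stronger peaks. With 2 kb added to each side of the gene body, 7 members held a summit in place of 3, against 33.7% of all genes. The median of the mean replicate ranks, 1336, ranged from 882 to 1516 when 1 replicate was left out. The medians of single replicates had an SD of 104, which does not measure the spread of that median of means. With the motif window widened to 200 bp, 2 of the 6 bound genes had the DRE near their summit in place of 0. The share was then 8.20% of all optimal summits in place of 5.38%. Among optimal summits within 1 kb of a TSS it was 12.4% in place of 8.25%. Counts of 0 and 2 among 6 are too small to be placed below or above such shares. With partners within 250 bp, 3 members with a partner were bound in place of 5, since only 3 had one. Ranked by −log10 q, *Chro*, *Cp190* and *Dref* each had a mean rank of 934, since many entries tie at the smallest q-value. That ranking does not tell their peaks apart. The cause was not tested for the other changes. Ranking by the score column gave no value, because that column holds the same number throughout. No paired analysis was possible because there is 1 group. Depth is unknown, so ranks near 3866, such as those of *M1BP*, *mod(mdg4)* and *su(Hw)*, carry the least certainty.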
